A study of Homo sapiens with 6 samples.

Results

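The noradrenergic core transcription factors described here are 8 genes: PHOX2A, HAND1, HAND2, GATA2, GATA3, ISL1, TFAP2B and TBX2. They were picked by name, out of 60709 genes with counts, and were measured in the human neuroblastoma cell line SH-SY5Y, which is long established. The study compared 3 control samples, which received 10 uL of DMSO per well, with 3 samples that received 200 uL of an aqueous solution of Nrf2-peptide-linked fumarate in addition to 10 uL of DMSO. All were lysed after 5 h, and messenger RNA was sequenced. Of the count columns, 3 carry the numbers 4, 5 and 6 that the labels give to control replicates 1, 2 and 3. No column carries the numbers 13, 14 and 15 of the peptide samples, so those were not analysed here and no effect of the peptide is reported. The name control rests on that match of numbers. If the columns had been renumbered, the libraries could be those of another treatment.

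Neuroblastoma arises from sympathoadrenal cells of the neural crest, whose noradrenergic identity is set by a group of transcription factors that bind near one another's genes and keep one another expressed. PHOX2A is a paired-like homeodomain protein that activates genes of noradrenaline synthesis. HAND1 and HAND2 are basic helix-loop-helix proteins that bind E-boxes as dimers with E-proteins, GATA2 and GATA3 are zinc finger proteins that bind GATA motifs, and ISL1 is a LIM homeodomain protein. TFAP2B is an AP-2 family factor of the neural crest, and TBX2 is a T-box factor best known as a repressor. Neuroblastoma lines with this programme are called adrenergic, in contrast to a mesenchymal state marked by factors such as PRRX1.

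All 8 genes were expressed, each with at least 372 counts in every library. Together they took 2508 CPM (counts per 1000000 of the scaled library total) in replicate 1, 2458 in replicate 2 and 2308 in replicate 3, a mean of 2425 ± 104 (SD, n = 3). Levels between genes were compared as CPM per kb of exon, since longer transcripts give more counts. On that scale HAND2 was highest, followed by PHOX2A, GATA2, ISL1, GATA3, TBX2, HAND1 and TFAP2B. HAND2 stood at rank 75 and PHOX2A at rank 129 of 13868 well-counted genes of known length, where well-counted means at least 10 times in each of the libraries. The lowest, TFAP2B, still stood at the 83.4th percentile of those genes. The median over the 8 genes was 60.5 ± 1.74 CPM per kb, against 6.15 ± 0.0671 over all well-counted genes.

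**Figure D1:**
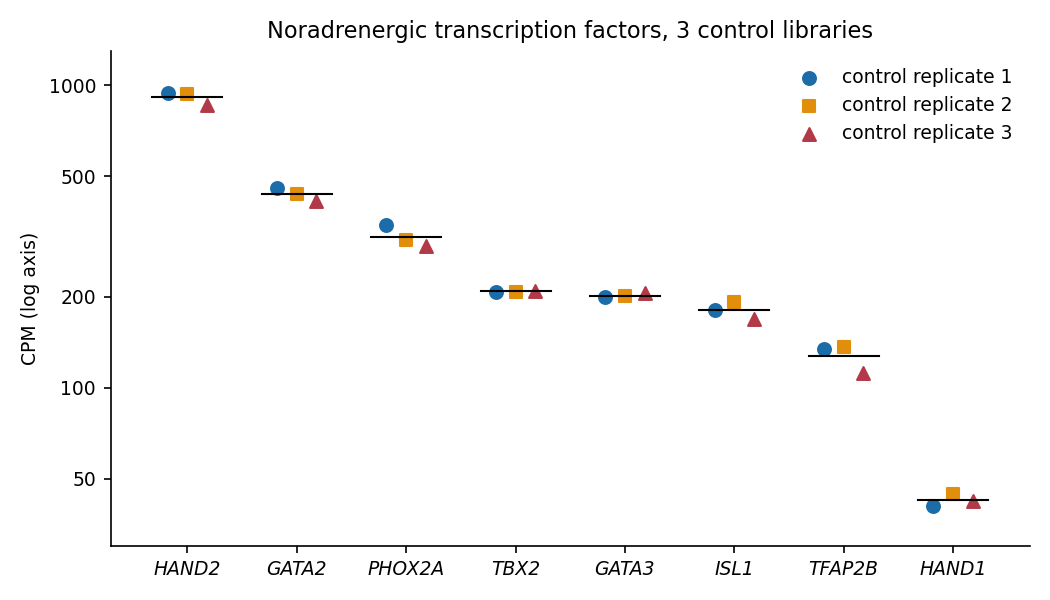
CPM of the 8 noradrenergic transcription factors (log axis) in control replicates 1, 2 and 3 (circles, squares and triangles), with the mean of the 3 libraries as a bar. HAND2 lies between 863 and 944 CPM and HAND1 between 40.5 and 44.6 CPM, and within each gene the libraries lie close together.

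The libraries held 8887854 to 11397407 counts. Replicate 3 stood apart. It had the fewest counts, and mitochondrially encoded genes took 6.25% of them, against 4.11% and 3.83% in replicates 1 and 2. The 3 samples are listed separately in the labels, which do not say whether they came from separate cultures, so their spread may be technical. The neuroblast type of the cells was checked on 10 markers, of which 9 were well-counted. The exception was TH, with 0 counts in each. PRPH and TUBB3 passed the minimum but were low, at the 13.4th and 39.3rd percentile per kb. The rest of the well-counted markers stood at the 84.0th percentile or higher. The summed level of the neuroblast markers was 2351 to 2562 CPM. The summed level was 6.21 to 8.47 CPM for 6 Schwann cell markers, 0.113 to 0.263 CPM for 5 endothelial markers, 1.58 to 2.43 CPM for 5 blood cell markers and 1.36 to 1.78 CPM for 5 markers of adrenal cortex. SOX10, the defining factor of Schwann cells and their precursors, had 0 counts, as did TEK, CDH5, CD3E, HBB, CYP17A1 and HSD3B2. The 8 markers of mesenchymal cells and fibroblasts summed to 685 to 744 CPM, most of it from COL3A1, a fibrillar collagen, with 316 ± 21.0 CPM, and VIM, an intermediate filament gene, with 285 ± 15.7 CPM. PDGFRA had 36.9 ± 0.412 CPM, COL1A2 had 1, 3 and 2 counts, and no gene of this list was at 0 in every library. In bulk RNA, few cells with a high level and many cells with a low level cannot be told apart.

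Of the 2 pairs of paralogs among the 8 genes, the HAND genes were more unequal than the GATA genes. HAND2 (ENSG00000164107.9, chr4:173524969-173530229, minus strand, GRCh38) had 944, 935 and 863 CPM in replicates 1, 2 and 3, from 10096, 10679 and 7643 counts. Replicates 1 and 2 were close to each other and replicate 3 was lowest. HAND1 (ENSG00000113196.3, chr5:154474972-154478264, minus strand) had 40.5, 44.6 and 42.0 CPM, from 433, 510 and 372 counts. Its values did not overlap those of HAND2 in any library. Per kb of exon, HAND2 exceeded HAND1 by 11.3, 10.1 and 9.92 times, a mean ratio of 10.4 ± 0.723 (SD, n = 3). The ratio was 13.5 ± 0.937 when the length of the longest transcript was used in place of all exons. Reads of one HAND gene could be counted for the other only where their sequences match, and the treatment of reads that match several genes is not given in the sources used here.

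HAND2 has a neighbour on the opposite strand, the long noncoding RNA HAND2-AS1 (ENSG00000237125.11). Of its 2 start sites in the RefSeq table, that at base 173530458 of chromosome 4 lies 229 bases from the start of HAND2 at base 173530229, and the other, at base 173528600, lies within HAND2. HAND2-AS1 had 336, 348 and 355 CPM, a mean of 346 ± 9.41 CPM, the highest of the 4 antisense partners. Its counts were lower than those of HAND2 in every library, by 2.81, 2.68 and 2.43 times. Exons of both genes overlap over 867 bases, which is 24.1% of the exon length of HAND2 and 4.09% of that of HAND2-AS1 in GENCODE 29. The library kit keeps strand, but whether the counting used it is not given in the sources used here, so reads from the overlap may be assigned to either gene.

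The sequences before the annotated starts of HAND2, HAND1 and ISL1 are shown because these are the members with 1 RefSeq window each that held the GATA motif bound by GATA2 and GATA3. Each run covers the 250 bases before the start, 5′ to 3′ on the gene's strand, from the RefSeq promoter table (GRCh38.p14). Capitals mark E-boxes (CANNTG) and GATA motifs (GATAA, or TTATC on the other strand). The windows lie at chr4:173530230-173530479 (HAND2, minus strand), chr5:154478228-154478477 (HAND1, minus strand) and chr5:51383198-51383447 (ISL1, plus strand).
HAND2: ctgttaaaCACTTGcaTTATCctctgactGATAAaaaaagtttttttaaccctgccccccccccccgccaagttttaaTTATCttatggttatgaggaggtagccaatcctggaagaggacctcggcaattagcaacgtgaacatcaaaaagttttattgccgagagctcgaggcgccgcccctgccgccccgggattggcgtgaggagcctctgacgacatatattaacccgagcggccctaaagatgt
HAND1: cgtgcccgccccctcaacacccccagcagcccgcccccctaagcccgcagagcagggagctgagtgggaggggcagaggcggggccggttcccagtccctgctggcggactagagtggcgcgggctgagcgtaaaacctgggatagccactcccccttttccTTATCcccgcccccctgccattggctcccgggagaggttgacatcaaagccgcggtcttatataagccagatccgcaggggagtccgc
ISL1: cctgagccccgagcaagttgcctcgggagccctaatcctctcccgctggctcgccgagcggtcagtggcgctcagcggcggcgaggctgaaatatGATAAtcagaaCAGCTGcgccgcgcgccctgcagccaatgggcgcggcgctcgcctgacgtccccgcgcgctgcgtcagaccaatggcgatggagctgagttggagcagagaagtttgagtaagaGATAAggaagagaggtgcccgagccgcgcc

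The HAND2 window held 3 GATA motifs and 1 E-box. One of the GATA matches overlaps a match to the homeodomain core TAATTA. The ISL1 window held 2 GATA motifs and 1 E-box, and the HAND1 window held 1 GATA motif and no E-box. Of 34943 distinct windows of this length in the table, 20.5% held a GATA motif and 61.8% an E-box on either strand. RefSeq windows were matched for 7 of the 8 genes, 13 windows in all, because GATA2 and GATA3 have several annotated starts. A GATA motif was found in 4 of the 13, an E-box in 5, the AP-2 motif GCCNNNGGC in 6 (19.7% of all windows), the T-box core GGTGTG in 6 (14.2% of all windows) and TAATTA in 1, that of HAND2 (4.35% of all windows). Several of these windows belong to the same gene. By gene, AP-2 matches lay in 3 (GATA2, GATA3 and HAND1) and T-box matches in 4 (GATA2, GATA3, PHOX2A and TFAP2B). GATA motifs and E-boxes lay in 4 genes each. The shares of all windows do not apply to these counts, since several windows give a gene more places for a match. The share of all genes with a match was not computed. The windows of PHOX2A and TFAP2B held neither a GATA motif nor an E-box. In 1 of the GATA2 windows an E-box and an AP-2 match overlap. These letter matches describe the windows and carry no information on binding in these cells.

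GATA2 was higher than GATA3. GATA2 (ENSG00000179348.12, chr3:128479427-128493185, minus strand) had 457, 436 and 414 CPM in replicates 1, 2 and 3. Its highest value was in replicate 1 and its lowest in replicate 3. GATA3 (ENSG00000107485.18, chr10:8045378-8075203, plus strand) had 199, 201 and 205 CPM, a spread of 1.67% around its mean. The groups of values did not overlap. Per kb of exon the ratio of GATA2 to GATA3 was 1.77, 1.67 and 1.55, a mean of 1.67 ± 0.110 (SD, n = 3), and it was 2.01 ± 0.133 with the longest transcripts.

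Of the other GATA genes, GATA4 was also expressed. GATA4, best known as a factor of heart and endoderm, had 176, 151 and 162 CPM, or 36.8 ± 2.77 CPM per kb. GATA2 exceeded it by 2.66 ± 0.176 times and GATA3 by 1.60 ± 0.130 times per kb, and both were above it in each library. GATA5 had 1.64 ± 0.730 CPM, and GATA1 and GATA6 had 0 counts throughout, an upper limit of 0.339 CPM in replicate 3. The antisense partners GATA2-AS1 and GATA3-AS1 had 20.5 ± 1.02 and 14.2 ± 0.695 CPM. Their exons do not overlap those of GATA2 and GATA3 in GENCODE 29, and their nearest opposing RefSeq starts lie 673 and 157 bases away. GATA2 had 21.3 ± 1.73 times the counts of GATA2-AS1, and GATA3 had 14.2 ± 0.951 times those of GATA3-AS1.

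PHOX2A (ENSG00000165462.5, chr11:72239077-72245664, minus strand) had 346, 307 and 294 CPM. Replicate 1 was highest, and the other 2 libraries lay closer together. Its exons are short, 1784 bases in all, so that per kb it stood second, with 194, 172 and 165 CPM per kb. HAND2 exceeded it by 1.44 ± 0.0784 times and it exceeded GATA2 by 1.81 ± 0.0697 times, and neither pair overlapped. PRRX1, another paired-type homeobox gene, had 0 counts in each library.

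ISL1 (ENSG00000016082.15, chr5:51383391-51394738, plus strand) had 180, 192 and 168 CPM. Replicate 2 was highest and replicate 3 lowest. Per kb its range, 58.4 to 66.5, overlapped that of GATA3, 57.8 to 59.7, so the order of these neighbours was not settled by the 3 libraries. With the longest transcripts in place of all exons the ranges separated, with means of 73.2 for ISL1 and 64.5 for GATA3. The paralog ISL2 had 7.54 ± 0.881 CPM, and ISL1 exceeded it by 18.5 ± 2.05 times per kb. Of the related LIM homeodomain genes, LHX4 had 6.94 ± 0.840 CPM and LHX3 at most 1 count in any library.

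TBX2 (ENSG00000121068.14, chr17:61399896-61409466, plus strand) was the steadiest of the 8 genes, with 208, 207 and 209 CPM. Its coefficient of variation was 0.569%, under the counting error of 2.06 to 2.32% per library. TBX3, the nearest paralog on the list and also a repressor, was expressed at a level near that of TBX2, with 173, 156 and 198 CPM. TBX2 exceeded TBX3 by 1.18, 1.31 and 1.04 times per kb, a mean of 1.18 ± 0.131. With the longest transcripts the mean ratio was 1.08 ± 0.120, and in replicate 3 it was 0.957, with TBX3 the higher. TBX4 had 1.21 ± 0.247 CPM and TBX5 had 0 counts. TBX2-AS1, whose exons do not overlap those of TBX2, had 13.1 ± 1.24 CPM, and TBX2 had 15.5, 14.6 and 17.8 times its counts in replicates 1, 2 and 3.

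TFAP2B (ENSG00000008196.13, chr6:50818723-50847613, plus strand) had 134, 137 and 112 CPM. Replicates 1 and 2 were close and replicate 3 was lowest, which gave the largest coefficient of variation of the 8 genes, 10.7%. Its exons span 6149 bases, the longest of the set, and per kb it was lowest, at 20.7 ± 2.22. HAND1, its neighbour in the order, had 24.4 ± 1.21 CPM per kb. Their ranges did not overlap over all exons, but overlapped with the longest transcripts. The other AP-2 genes were low or undetected. TFAP2E had 3.26 ± 0.704 CPM, TFAP2A and TFAP2D at most 3 counts in any library, and TFAP2C 0 counts. TFAP2B had 39.7 ± 4.85 times the counts of TFAP2E, and 14.3 ± 1.75 times its level per kb.

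**Figure D2:**
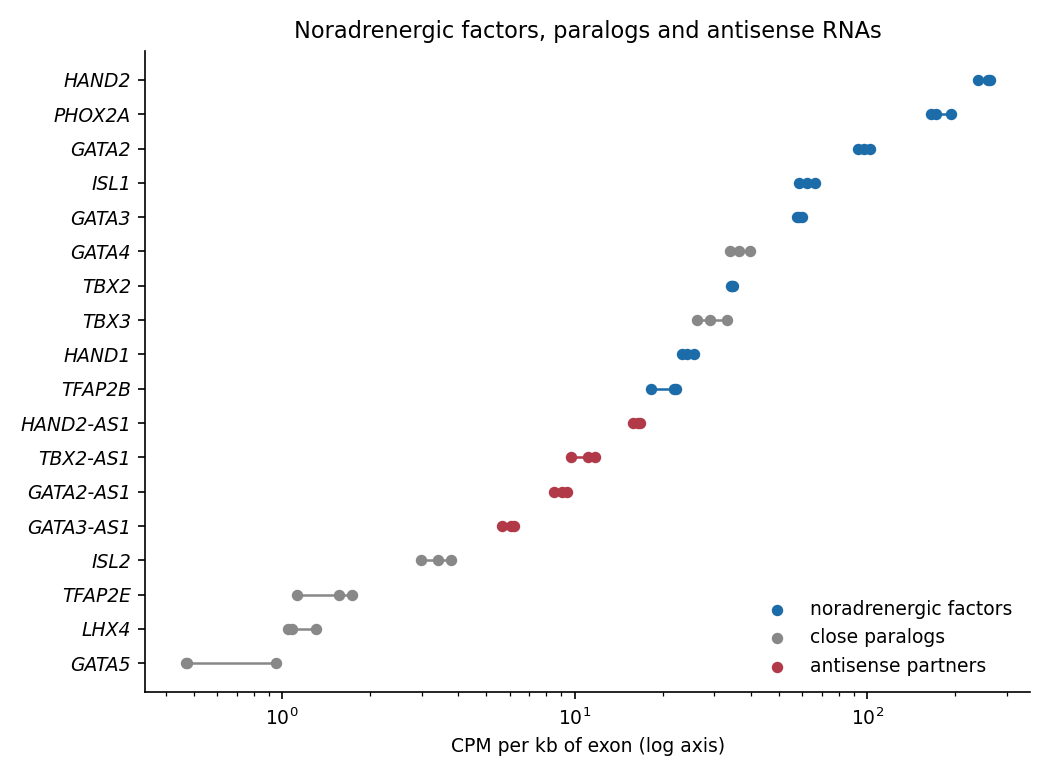
CPM per kb of exon (log axis) in each of the 3 control libraries (points, joined by a line from lowest to highest) for the 8 noradrenergic factors (blue), the 6 well-counted close paralogs (grey) and the 4 antisense partners (red). GATA4 and TBX3 lie among the noradrenergic factors, and the other 4 paralogs lie below every antisense RNA.

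Of the 16 close paralogs on the list, 6 were well-counted and 6 had 0 counts in each. The other 4, TBX4 among them, fell under the minimum in at least 1 library. GATA4 and TBX3 were the only paralogs above 10 CPM.

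The spread between libraries was set against counting error by a chi-square test of each gene's counts, adjusted over the 13920 well-counted genes by the method of Benjamini and Hochberg. It compares these libraries and not conditions. The counts of 5 of the 8 genes differed by more than counting error: PHOX2A (adjusted p = 3.76e-09), HAND2 (5.40e-08), TFAP2B (1.70e-05), GATA2 (0.000275) and ISL1 (0.00340). HAND1, GATA3 and TBX2 did not pass, with adjusted p of 0.494, 0.726 and 0.962. Of all genes tested, 27.2% passed. Deeply counted genes pass more often, and among genes within a factor of 2 of each of the 8 in mean count, the share was 31.2% (around HAND1) to 77.4% (around HAND2). The share of 5 in 8 therefore lies within the range of genes counted as deeply. Without replicate 3 only PHOX2A passed (adjusted p = 0.000124), against 3.01% of all genes. The share among genes counted as deeply was not computed for that setting.

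The coefficient of variation was 8.53% for PHOX2A, 6.50% for ISL1, 5.00% for GATA2, 4.94% for HAND1 and 4.84% for HAND2. The median over the 8 genes was 4.97%, against 8.69% over all well-counted genes, most of which have fewer counts. Among genes within a factor of 2 of each of the 8 in mean count, the median was 4.43% (around HAND2) to 7.44% (around HAND1). Of such genes, 0.662% varied less than TBX2, 7.17% less than GATA3 and 27.3% less than HAND1. The share was 48.2% for GATA2, 56.0% for ISL1, 56.2% for HAND2, 79.9% for PHOX2A and 84.8% for TFAP2B. The coefficients that edgeR moderates towards the trend over all genes ran from 6.41% (TBX2) to 7.59% (TFAP2B), close to the common value of 7.81%.

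Replicate 3 was the lowest library for 5 of the 8 genes, HAND2, GATA2, PHOX2A, ISL1 and TFAP2B, and the highest for GATA3 and TBX2. It was the lowest for 41.8% of all well-counted genes. Its log2 difference from the mean of replicates 1 and 2 had a median of -0.12 over the 8 genes and -0.01 over all well-counted genes. TFAP2B differed most, by -0.28, followed by PHOX2A with -0.15 and ISL1 with -0.14. The libraries also differed by GC content: genes of high GC were lower in replicate 3. After the median difference of genes of the same GC was subtracted, TFAP2B still differed by -0.25 and ISL1 by -0.16, while the differences of TBX2, GATA3, PHOX2A and HAND1 became 0.22, 0.16, 0.13 and 0.12. HAND2 was left with 0.04 and GATA2 with 0.06. Replicate 3 was then the highest library for 6 of the 8 genes and for 38.1% of all 13863 well-counted genes of known GC. With the trend removed, the counts of PHOX2A, GATA3, ISL1, TFAP2B and TBX2 differed beyond counting error. Those of HAND1, HAND2 and GATA2 did not. Of all genes, most of which have fewer counts, 8.33% passed. The share among genes counted as deeply as the 8 was not computed with the trend removed. The steadiness of TBX2 and GATA3 in CPM thus did not hold after this correction. The part of RNA quality in these differences was not tested.

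**Figure D3:**
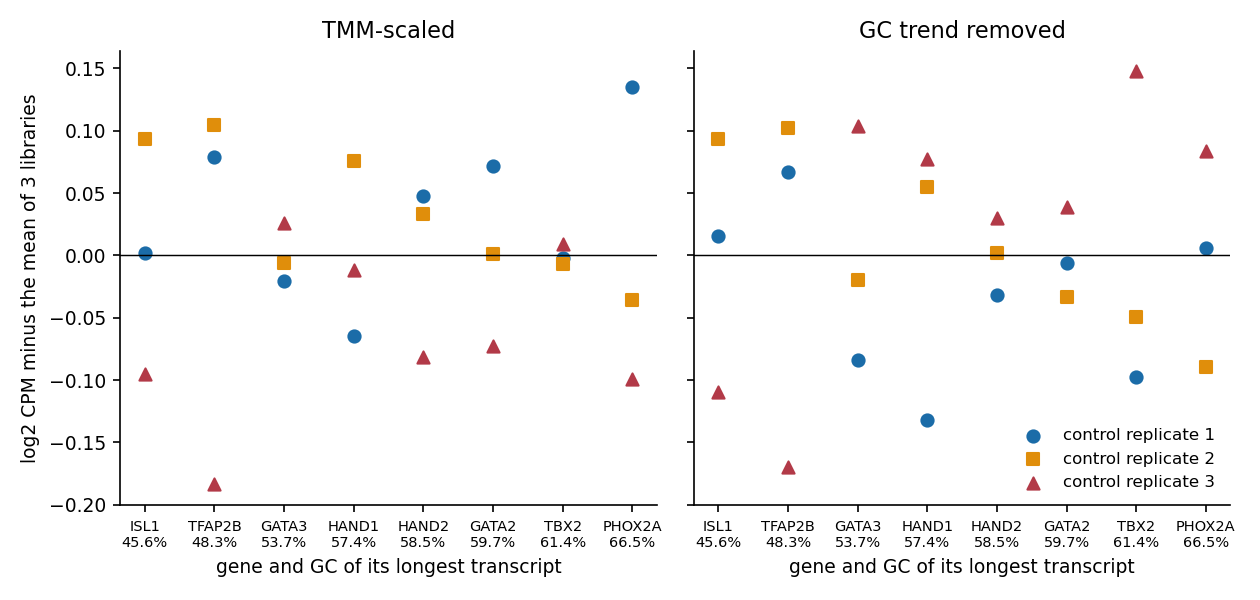
Log2 CPM of each noradrenergic factor minus its mean over the 3 control libraries, with genes ordered by the GC content of the longest transcript, before (left) and after (right) removal of the GC trend of each library. Replicate 3 (triangles) is lowest for ISL1 and TFAP2B in both panels, and for HAND2, GATA2 and PHOX2A in the left panel only.

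Profiles over 3 libraries hold little information on likeness. For each gene, 1365 to 2925 of 10296 nuclear genes that averaged 100 counts or more lay within a distance of 0.1 of its centred log2 CPM profile. The nearest were KLF13 and EID2 for PHOX2A, COPS5 and EZH1 for HAND1, GPI and SCAP for HAND2, and SMARCAL1 and AGTRAP for GATA2. They were MORN4 and RPL23 for GATA3, NPM3 and COMMD3 for ISL1, and MSI2 and SRPK2 for TBX2, all at distances of at most 0.00474. Among the 8 genes, GATA2 lay within 0.1 of both HAND2 and PHOX2A, HAND2 lay within 0.1 of ISL1, and GATA3 within 0.1 of TBX2. HAND1 and TFAP2B had none of the others within that distance.

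Proteins that work with these factors were present to different extents. E-proteins, the dimer partners of HAND1 and HAND2, were the highest in CPM of 17 partner genes, with 634 ± 30.3 CPM for TCF4, 243 ± 28.1 for TCF3 and 201 ± 2.10 for TCF12. Per kb of exon they had 22.8, 40.0 and 21.3, below HAND2. The exons of TCF4 span 27828 bases and its longest transcript 8343, so its level per kb depends strongly on the length used. LDB1, the adaptor that joins LIM domain proteins, had 167 ± 6.68 CPM, or 60.0 ± 2.39 per kb, near the level of ISL1. ZFPM1, a cofactor of GATA proteins, had 38.2 ± 4.91 CPM, while ZFPM2 had 0.952 ± 0.269 CPM. LMO1, a LIM-only protein linked to neuroblastoma, had 10.6 ± 0.423 CPM. KCTD15 and KCTD1, which bind AP-2 factors, had 107 ± 10.2 and 34.8 ± 2.79 CPM. TAL1, a partner of GATA proteins in blood cells, had 1, 0 and 0 counts. Of the 17, 13 were well-counted. LDB1, ZFPM1, ZFPM2, LMO1, KCTD15 and KCTD1 were named after their values were seen.

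Of 20 other transcription factors of the adrenergic state, 17 were well-counted. The list median was 5.24 ± 0.276 CPM per kb, against 60.5 for the 8 noradrenergic factors. The highest in CPM were SOX4, with 362 ± 7.84, SOX11, with 271 ± 22.7, and KLF13, with 226 ± 18.9 CPM. SOX4 and SOX11 are factors of immature neurons, and SOX4 reached 61.8 ± 1.34 CPM per kb, near ISL1. NHLH2 was lowest, with 1, 0 and 0 counts.

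Of 21 factors linked to the mesenchymal state, 14 were well-counted, and the median was 0.699 ± 0.123 CPM per kb. PRRX1, TWIST2, RUNX2, MEOX1 and MEOX2 had 0 counts in each. TWIST1, a basic helix-loop-helix factor of the same family as the HAND proteins, was the exception, with 198, 198 and 164 CPM and 91.8 ± 9.83 CPM per kb, a level near that of GATA2. NOTCH2, a receptor whose cut intracellular part acts in the nucleus, had 172 ± 9.81 CPM and FOSL2 had 47.7 ± 7.99 CPM.

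A list of 15 effector genes of noradrenergic cells holds enzymes of noradrenaline synthesis, granule proteins and transporters, and also 3 nicotinic receptor subunits and the breakdown enzyme MAOA. Its median was 21.5 ± 1.18 CPM per kb, and 13 of the 15 were well-counted. DBH, which makes noradrenaline from dopamine and is a known target of PHOX2A, was the highest, with 877, 821 and 700 CPM. CYB561, an electron carrier of the granule membrane, had 554 ± 30.7 CPM and CHGB, a granule protein, 505 ± 31.0 CPM. TH, the rate-limiting enzyme of the pathway, had 0 counts in all 3 libraries, and the upper limits were 0.281, 0.263 and 0.339 CPM in replicates 1, 2 and 3. The 8 factors were thus measured together with high DBH and no detected TH.

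**Figure D4:**
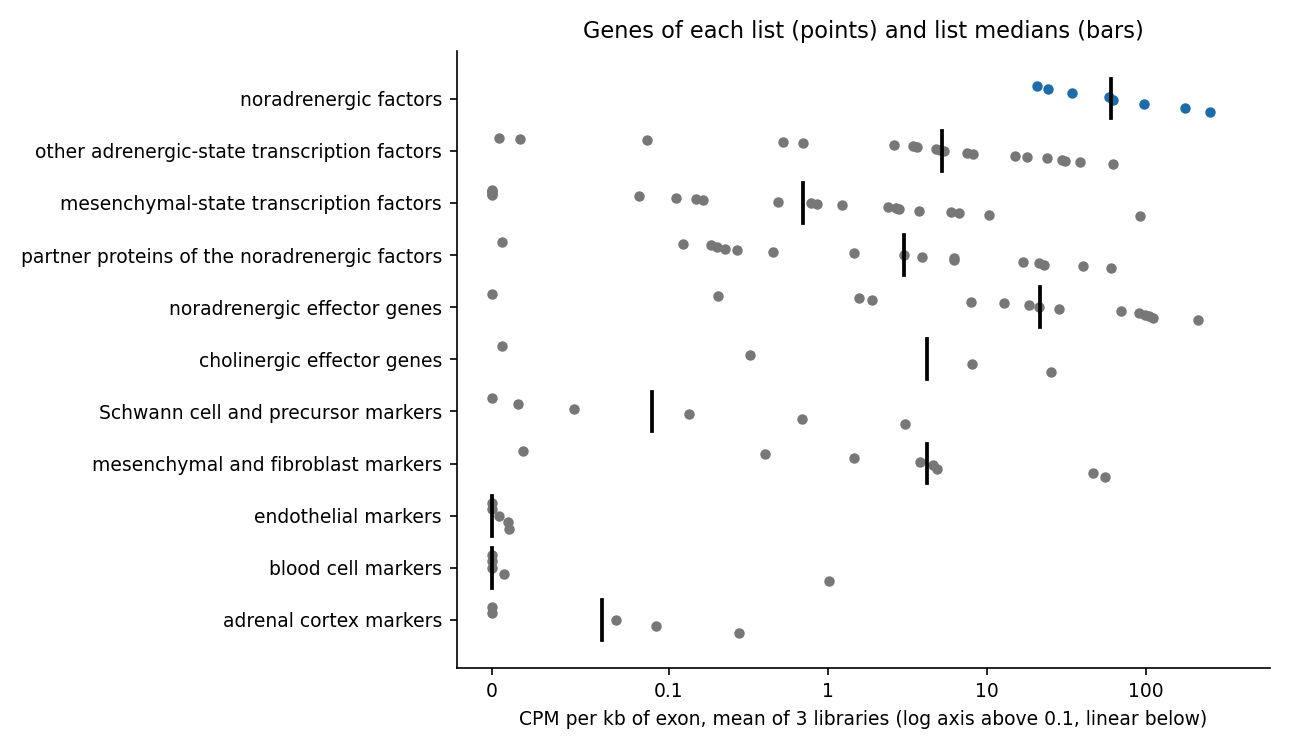
Mean CPM per kb of exon over 3 control libraries for each gene of 11 lists (points, log axis above 0.1 and linear below), with the mean over libraries of the list median as a bar. The noradrenergic factors (blue) all lie above 20 CPM per kb, while the other lists reach down to values near 0.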

How the data were processed

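Messenger RNA of SH-SY5Y cells was sequenced from total RNA with a stranded kit, per the labels' protocols. The values are raw counts of reads per Ensembl gene, as the authors deposited them. Per the submitters' processing notes, fastp 0.21.1, STAR 2.7.7a and featureCounts were used with GRCh38. The annotation release, the strand setting and the treatment of reads that match several genes are not given in the sources used here. Of 6 count columns, 3 were matched by number to the control samples and 3 were not used. The comparison of peptide with control samples was therefore not made.

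Totals were 10683037, 11397407 and 8887854 counts. A count of 0 allows up to 3 counts. Counting errors cover counting only, since no molecular identifiers are stated. Of 60710 genes, 1 (ANK2) has no value in the columns used, and 2 lines name no gene. Counts were scaled to CPM with the TMM method of edgeR 4.0.16 (R 4.3.3). Symbols came from a table of Ensembl identifiers. Exon lengths, coordinates and GC content came from GENCODE 29 (GRCh38), which may differ from the annotation that was counted. Variation between libraries was tested across all genes counted at least 10 times in each library (chi-square, Benjamini-Hochberg, threshold 0.05), and dispersions were estimated with edgeR. Both were tested on simulated data. Promoter windows came from RefSeq. The GC trend was the median deviation in 50 bins over 10290 genes. Python 3.11.15 and scipy 1.17.1 were used.

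The 8 genes and all lists were chosen with earlier results of these data known. Named by rule were the 8 genes, their antisense partners, paralogs that passed the same minimum, the 3 highest genes and the lowest of each other list by CPM, and the 2 nearest profiles. Other genes of the lists (TBX4, LHX3, TFAP2A, TFAP2D, PDGFRA and the markers at 0 among them) were named after their values were seen. Some genes that the rule names, the nearest profiles of TFAP2B among them, are not reported here. Alternatives were other scalings, mitochondrial genes left out, other lengths and count minimums, each library left out and, chosen after the data were seen, removal of the GC trend.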

Additional observations from a re-analysis of the deposited data

How the results depend on the processing

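No paired analysis was possible because only control samples could be linked to columns of the table, and the alternatives planned for the peptide comparison (DESeq2, no filter, a replicate block, each replicate left out) were not run for the same reason. The summed level of the 8 factors, 2425 CPM, rose to 2544 CPM once the total no longer held mitochondrial genes, which raises every other gene, and went from 2383 to 2483 CPM when 1 library was left out. The ratio of HAND2 to HAND1 per kb, 10.4, was 13.5 with the longest transcripts and 10.0 to 10.7 with 1 library left out. That of GATA2 to GATA3, 1.67, was 2.01 with the longest transcripts and 1.61 to 1.72 with 1 library left out. The order of the 8 levels per kb was the same with either length. The number of genes that differed between libraries beyond counting error, 3790, was 1160 with the GC trend removed and went from 432 (without replicate 3) to 3986 (without replicate 2), with 2313 without replicate 1. Of the 8 factors, 5 passed under the other scalings and under a minimum of 1 count. Without replicate 1, PHOX2A (adjusted p = 0.257) and GATA2 (0.0903) no longer passed, and without replicate 2 ISL1 (0.139) did not. The common coefficient of variation, 7.81%, went from 3.87% (without replicate 3) to 10.5% (without replicate 2). It was 4.87% with the GC trend removed. Leaving out 1 of 3 libraries cannot move a mean by 1 SD, so it says nothing about the stability of levels. Of 56 alternative CPM values of single factors, 4 moved by more than 1 SD. They were those of HAND1, HAND2, GATA3 and TBX2 with mitochondrial genes left out. Of 110 alternative list medians, 16 moved. Both totals include the values with 1 library left out, which could not move by 1 SD. Per kb, the longest transcripts moved 5 of the 8 factors by more than 1 SD: HAND2, GATA2, ISL1, GATA3 and TBX2. HAND2 went from 253.8 to 328.7 CPM per kb and GATA2 from 97.7 to 129.4. HAND1, at 372 to 510 counts, is the factor most limited by depth.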

Other observations

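Genes of the cholinergic phenotype, the alternative transmitter choice of sympathetic neurons, were measured in the same libraries. SLC18A3, the vesicular transporter of acetylcholine, had 19.6, 22.5 and 16.4 CPM, and VIP, a peptide of cholinergic sympathetic neurons, had 36.0, 35.1 and 48.6 CPM, with its highest value in replicate 3. CHAT, the enzyme that makes acetylcholine, had 13, 12 and 12 counts, and SLC5A7, the choline transporter, had 0, 1 and 0. SLC18A3 lies within an intron of CHAT in the usual annotation, and how shared reads were counted is not given in the sources used here. SLC18A2, the vesicular monoamine transporter of neurons, had 0.840 ± 0.170 CPM, against 65.9, 64.6 and 84.2 CPM for SLC18A1, its endocrine counterpart, and both were named after their values were seen.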
